A study of Mus musculus with 8 samples.

Results

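The genes described here are 53 components of the machinery of cell division: mitotic kinases, cyclins and the regulators of Cdk1, the spindle checkpoint, mitotic kinesins, centromere and kinetochore proteins, spindle-associated proteins, cytokinesis factors, and the transcription factor Foxm1 with chromosome factors. They were found in the array data by gene symbol or an older synonym, with 1 probe per gene, and 52 of the 53 had a named probe, among 21946 named genes and 31443 tested features. Ccnb1, which encodes cyclin B1, had no named probe and is not analysed here.

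Murine skeletal myoblasts, the precursor cells that fuse into muscle fibres, received an siRNA against G9a (siG9a) or a scrambled control siRNA. G9a is a histone H3 lysine 9 methyltransferase encoded by Ehmt2. Total RNA was hybridised to Illumina WG-6 v2.0 arrays at day 1 and day 0, with 2 biological replicates and 1 array per sample. The 4 groups were siG9a at day 1, control at day 1, siG9a at day 0 and control at day 0, 8 arrays in all; the labels give neither the event from which days were counted nor the origin or strain of the cells.

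Entry into mitosis is driven by Cdk1 bound to cyclins A and B, and by the polo-like and Aurora kinases, while the spindle checkpoint holds the anaphase-promoting complex (APC/C) inactive until every chromosome is attached to the spindle. Most of these genes are transcribed late in the cell cycle, in G2 and M phase, under the DREAM, B-Myb and FoxM1 regulators, through CHR elements and CCAAT boxes near the start of transcription. Myoblasts leave the cell cycle before they differentiate, so transcripts of this group are widely used as markers of proliferating cells in muscle cultures.

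The promoters shown here let the elements be seen in sequence. Among members with a matched promoter that holds both elements, these 4 had the largest day difference relative to its SE in control cells. Members without a matched promoter, among them Cdc25c and Aurkb, could not be considered. The windows run from 250 bases before to 50 bases after the annotated start of each gene (RefSeq, build GRCm38.p6), written 5′ to 3′ on the gene's strand, with the CHR core (TTTGAA or its reverse TTCAAA, and TTTAAA) and the CCAAT box (CCAAT or its reverse ATTGG) in capitals. Cdkn3 lies at chr14:46760291-46760590 on the plus strand, Kif22 at chr7:127042371-127042670 on the minus strand, Plk1 at chr7:122159185-122159484 on the plus strand and Spag5 at chr11:78301341-78301640 on the plus strand.
Cdkn3: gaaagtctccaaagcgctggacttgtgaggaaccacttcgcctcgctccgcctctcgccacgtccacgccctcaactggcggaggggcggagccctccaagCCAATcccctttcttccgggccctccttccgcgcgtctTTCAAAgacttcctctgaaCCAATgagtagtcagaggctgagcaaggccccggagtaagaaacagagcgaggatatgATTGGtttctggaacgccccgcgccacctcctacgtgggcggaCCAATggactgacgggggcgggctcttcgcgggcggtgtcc
Kif22: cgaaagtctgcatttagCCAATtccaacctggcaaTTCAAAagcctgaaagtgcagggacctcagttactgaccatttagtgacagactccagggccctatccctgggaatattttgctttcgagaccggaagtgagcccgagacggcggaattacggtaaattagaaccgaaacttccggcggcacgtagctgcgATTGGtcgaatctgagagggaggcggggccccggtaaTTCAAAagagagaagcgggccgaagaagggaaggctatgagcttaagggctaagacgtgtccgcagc
Plk1: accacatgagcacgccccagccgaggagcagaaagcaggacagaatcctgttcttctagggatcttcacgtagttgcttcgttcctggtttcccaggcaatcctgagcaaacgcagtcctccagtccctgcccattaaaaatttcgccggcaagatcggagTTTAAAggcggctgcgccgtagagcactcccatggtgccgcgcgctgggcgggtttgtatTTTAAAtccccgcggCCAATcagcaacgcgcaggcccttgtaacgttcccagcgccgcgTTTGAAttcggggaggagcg
Spag5: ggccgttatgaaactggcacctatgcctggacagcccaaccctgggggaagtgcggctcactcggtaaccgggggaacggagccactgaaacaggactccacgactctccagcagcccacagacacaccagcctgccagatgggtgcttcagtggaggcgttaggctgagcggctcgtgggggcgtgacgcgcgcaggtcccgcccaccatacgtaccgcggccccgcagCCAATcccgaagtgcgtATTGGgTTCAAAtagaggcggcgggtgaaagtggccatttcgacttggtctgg

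The Plk1 window, at the gene of polo-like kinase 1, holds 1 CCAAT box with 2 TTTAAA cores upstream of it and a TTTGAA core downstream, and the Spag5 window, at the gene of the spindle protein astrin, holds 2 CCAAT boxes with a CHR core directly downstream. RefSeq promoters were matched for 44 of the 53 members, with 49 windows in all. A CHR core on either strand was present in 41 of those 49 windows (83.7%), against 27.6% of all 32851 promoter windows in the table. A CCAAT box was present in 38 member windows (77.6%), against 37.4% of all windows, and both elements in 35 member windows (71.4%), against 10.7% of all windows; the elements overlapped in 1 member window. At least 2 CCAAT boxes were present in 53.1% of member windows and in 11.7% of all windows. The cores clustered at the start site: between 50 bases before and 50 bases after it, 35 of 49 member windows (71.4%) held a CHR core, against 8.3% of all windows. In the adjoining stretch, at positions -150 to -50, the CHR core was in 16.3% of member windows and 10.8% of all windows. A match of these letters is a description and does not show that a factor binds there.

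Values are the deposited logarithms, taken as base 2, each relative to a level of the probe's own, so they compare arrays for 1 gene and not genes with each other. For the siRNA target Ehmt2, the values were -0.95 and -0.31 in siG9a and 0.77 and 0.66 in control cells at day 1. At day 0, Ehmt2 stood at -0.82 and -0.69 in siG9a and 1.23 and 0.59 in control cells. Both siG9a arrays lay below both control arrays on each day, by -1.34 ± 0.27 at day 1 and -1.67 ± 0.27 at day 0 (difference of group means ± SE from limma, n = 2 arrays per group, adjusted p = 1 each over all features). With each siG9a array compared with its control of the same day and replicate number, Ehmt2 differed by -1.72 and -0.96 at day 1. At day 0 the pairs differed by -2.05 and -1.28. Over these 4 pairs, from 2 biological replicates, the difference was -1.50 ± 0.12 (limma with a block for each pair, adjusted p = 1.11e-06). That SE was drawn toward a spread shared by all features and understates the variation among the 4 pairs. These values are from the chosen Ehmt2 probe. A further Ehmt2 probe differed by -1.31 at day 1 and -1.72 at day 0, and another by only -0.158 and -0.136. Since no absolute intensity is held in these values, the presence of a cell type marker cannot be read from them. The medians of 7 macrophage and leukocyte, 6 endothelial and 6 adipocyte markers stayed between -0.27 and 0.205 on every array. The median of 7 myoblast markers lay at 0.588 and -0.187 in siG9a and 0.678 and -0.187 in control cells at day 1, and at -0.071 and -1.36 in siG9a and -0.286 and -1.96 in control cells at day 0.

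In siG9a cells, 25 of the 52 measured members fell between the days (day 1 minus day 0, limma, adjusted p under 0.05 by Benjamini-Hochberg over 31443 features), 48.1% of members beside 0.677% of all features called lower, and no member was called higher, beside 0.229% of all features. The median member difference was -1.58 in siG9a cells, which under base 2 leaves 33.5% of the day 0 level, while the median over all features was 0.0902. In control cells, 23 of 52 members fell (44.2%, beside 0.76% of all features), none was called higher (beside 0.363% of all features), and the median member difference was -1.43, or 37.0% of the day 0 level, against 0.00931 over all features. The groups did not overlap for 42 members that were lower at day 1 in siG9a cells (9.94% of all features) and for 41 in control cells (13.1% of all features). For 1 member in each course the day 1 arrays lay above the day 0 arrays (18% of all features in siG9a and 13.4% in control cells). Of the called members, 22 were called in both courses, Cdk1, Cdc20 and Kif23 in siG9a cells alone and Foxm1 in control cells alone. In bulk RNA, fewer dividing cells and less of each transcript per cell cannot be told apart.

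The replicate numbers paired the arrays, and with the replicate as a block 39 members were called lower in siG9a cells (75%, beside 5.56% of all features) and 40 in control cells (76.9%, beside 4.97%), of which 38 were called in both. None was called higher with the block, beside 3.42% of all features in siG9a and 3.85% in control cells. Member deviations from the group means correlated more within a day (r = 0.834 at day 0 and 0.903 at day 1) than across days (0.387 to 0.501). The block holds 1 replicate shift for both days, so a shift particular to a day stays in these comparisons. The adjusted p of day differences with the block may therefore be too small. Single arrays decided the unblocked counts. In siG9a cells no member was called without the second replicate of either day, and 12 were called without the first replicate of day 0; in control cells none was called without either day 0 array and 2 without the second replicate of day 1. Centring each array on its median left 13 calls in siG9a and 3 in control cells, and quantile normalization 3 and 0, but with centring and the block together, a setting chosen after seeing the data, 41 and 40 members were called.

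**Figure D1:**
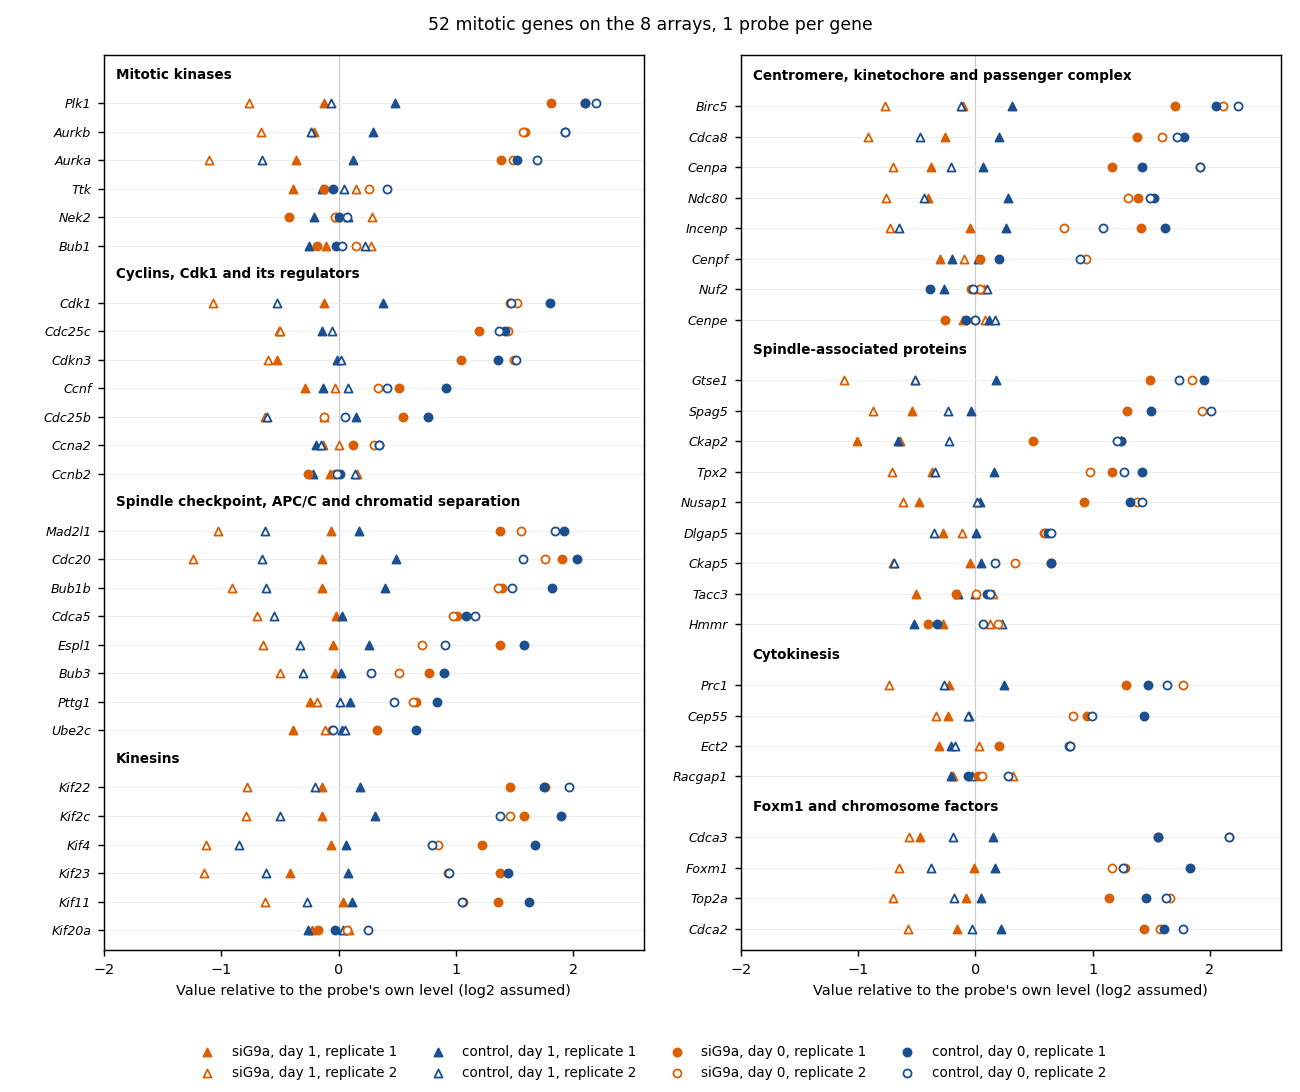
Deposited log values (base 2 assumed, relative to each probe's own level) of the 52 members on each of the 8 arrays, with day 1 as triangles, day 0 as circles, siG9a in orange, control in blue, replicate 1 filled and replicate 2 open. Most members sit higher at day 0, and 11 members, among them Bub1, Nek2 and Nuf2, span at most 1.05 units over all arrays.

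Among the mitotic kinases, 3 of 6 fell in each course. Plk1, polo-like kinase 1, which drives centrosome maturation and cytokinesis, stood at -0.13 and -0.76 in siG9a and 0.48 and -0.07 in control cells at day 1. At day 0, Plk1 stood at 1.81 and 2.10 in siG9a and 2.10 and 2.20 in control cells. The fall was -2.40 ± 0.26 in siG9a cells (adjusted p = 0.0115) and -1.94 ± 0.26 in control cells (adjusted p = 0.0194), and all 4 day 1 arrays lay below all 4 day 0 arrays. Aurka, the spindle pole Aurora kinase, stood at -0.36 and -1.10 in siG9a and 0.12 and -0.65 in control cells at day 1, against 1.38 and 1.49 in siG9a and 1.52 and 1.69 in control cells at day 0. Aurkb, the kinase of the chromosomal passenger complex that corrects attachments, stood at -0.21 and -0.66 in siG9a and 0.29 and -0.24 in control cells at day 1, against 1.59 and 1.57 in siG9a and 1.93 and 1.93 in control cells at day 0. Neither Aurora kinase overlapped between days, and their falls were -2.17 ± 0.30 and -2.01 ± 0.23 in siG9a cells (adjusted p = 0.0217 and 0.0115) and -1.87 ± 0.30 and -1.90 ± 0.23 in control cells (adjusted p = 0.0307 and 0.0162).

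The other kinases gave no such difference. Bub1, a checkpoint kinase at kinetochores, stood at -0.10 and 0.28 in siG9a and -0.25 and 0.22 in control cells at day 1, against -0.18 and 0.15 in siG9a and -0.02 and 0.02 in control cells at day 0. Ttk, the Mps1 checkpoint kinase, stood at -0.39 and 0.15 in siG9a and -0.15 and 0.05 in control cells at day 1, against -0.12 and 0.26 in siG9a and -0.05 and 0.41 in control cells at day 0. Both overlapped between days in each course, with differences of 0.10 ± 0.23 and -0.19 ± 0.25 in siG9a cells and -0.01 ± 0.23 and -0.23 ± 0.25 in control cells. Nek2, which promotes centrosome separation, stood at -0.01 and 0.28 in siG9a and -0.21 and 0.08 in control cells at day 1. At day 0, Nek2 stood at -0.42 and -0.03 in siG9a and 0.00 and 0.07 in control cells. Its day difference was 0.36 ± 0.20 in siG9a cells, where it was the only member whose day 1 arrays both lay above the day 0 arrays, and -0.10 ± 0.20 in control cells, where the arrays overlapped; neither was called (adjusted p = 0.89 and 1).

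Of the 7 cyclins and regulators of Cdk1, 3 fell in siG9a cells and 2 in control cells. Cdk1, the kinase that starts mitosis, stood at -0.12 and -1.07 in siG9a and 0.38 and -0.53 in control cells at day 1. At day 0, Cdk1 stood at 1.46 and 1.52 in siG9a and 1.80 and 1.47 in control cells. All day 1 arrays lay below all day 0 arrays, by -2.08 ± 0.36 in siG9a cells (adjusted p = 0.04) and -1.71 ± 0.36 in control cells (adjusted p = 0.0717); with the block the adjusted p was 0.000546 and 0.00139. Cdc25c, a phosphatase that activates Cdk1, stood at -0.51 and -0.50 in siG9a and -0.14 and -0.05 in control cells at day 1, against 1.20 and 1.45 in siG9a and 1.42 and 1.36 in control cells at day 0. Cdkn3, a phosphatase that removes the activating phosphate of cyclin-dependent kinases, stood at -0.52 and -0.61 in siG9a and -0.02 and 0.02 in control cells at day 1, against 1.04 and 1.50 in siG9a and 1.35 and 1.51 in control cells at day 0. Replicates of both phosphatase genes were close at day 1, and they changed by -1.83 ± 0.16 and -1.83 ± 0.19 in siG9a cells (adjusted p = 0.00741 and 0.0105) and by -1.49 ± 0.16 and -1.43 ± 0.19 in control cells (adjusted p = 0.0125 and 0.019).

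The cyclins themselves differed less on these probes. Ccna2, cyclin A2, stood at -0.13 and 0.00 in siG9a and -0.19 and -0.15 in control cells at day 1. At day 0, Ccna2 stood at 0.12 and 0.30 in siG9a and 0.34 and 0.35 in control cells. Its arrays were lower at day 1 without overlap, by -0.28 ± 0.16 in siG9a cells and -0.51 ± 0.16 in control cells (adjusted p = 0.923 and 0.269; with the block 0.146 and 0.0127). Ccnb2, cyclin B2, stood at -0.08 and 0.15 in siG9a and -0.22 and 0.14 in control cells at day 1. At day 0, Ccnb2 stood at -0.26 and -0.03 in siG9a and 0.01 and -0.01 in control cells. These arrays overlapped in both courses, with differences of 0.19 ± 0.19 in siG9a cells and -0.04 ± 0.19 in control cells. Cdc25b, the phosphatase that acts on Cdk1 at centrosomes, stood at -0.13 and -0.63 in siG9a and 0.15 and -0.61 in control cells at day 1. At day 0, Cdc25b stood at 0.55 and -0.13 in siG9a and 0.76 and 0.05 in control cells. Replicate 2 of Cdc25b was lower than replicate 1 in every group and the days overlapped in control cells, and its difference of -0.59 ± 0.36 in siG9a and -0.64 ± 0.36 in control cells was called only with the block (adjusted p = 0.00869 and 0.0053). Ccnf, a cyclin that serves as an F-box protein, differed by -0.58 ± 0.21 in siG9a and -0.69 ± 0.21 in control cells, with adjusted p = 0.439 and 0.269, and 0.0796 and 0.0437 with the block.

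Among 8 genes of the spindle checkpoint, the APC/C and chromatid separation, Cdc20 and Mad2l1 fell in siG9a cells and Mad2l1 in control cells. Cdc20, the APC/C activator that the checkpoint restrains, stood at -0.14 and -1.24 in siG9a and 0.49 and -0.66 in control cells at day 1. At day 0, Cdc20 stood at 1.90 and 1.76 in siG9a and 2.03 and 1.57 in control cells. This was the deepest day difference of any member in siG9a cells, -2.52 ± 0.43 (adjusted p = 0.0376), against -1.88 ± 0.43 in control cells (adjusted p = 0.0932, and 0.000924 with the block). Mad2l1, which encodes the checkpoint protein Mad2, stood at -0.06 and -1.03 in siG9a and 0.17 and -0.63 in control cells at day 1. At day 0, Mad2l1 stood at 1.37 and 1.55 in siG9a and 1.92 and 1.84 in control cells. It had the deepest fall in control cells, -2.11 ± 0.34 (adjusted p = 0.0307), and changed by -2.01 ± 0.34 in siG9a cells (adjusted p = 0.0376). Bub1b, the checkpoint protein BubR1, stood at -0.14 and -0.91 in siG9a and 0.40 and -0.62 in control cells at day 1. At day 0, Bub1b stood at 1.39 and 1.36 in siG9a and 1.82 and 1.48 in control cells. Its arrays were lower at day 1 by -1.90 ± 0.35 in siG9a and -1.76 ± 0.35 in control cells, outside the threshold in both without the block (adjusted p = 0.0525 and 0.0601) and called with it (0.000573 and 0.000791).

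Securin and separase control the cohesin cut at anaphase. Espl1, separase, stood at -0.05 and -0.65 in siG9a and 0.26 and -0.33 in control cells at day 1. At day 0, Espl1 stood at 1.37 and 0.71 in siG9a and 1.58 and 0.91 in control cells. It was lower at day 1 in both replicates and by nearly the same amount, -1.39 ± 0.34 in siG9a and -1.28 ± 0.34 in control cells; the replicates themselves were apart, and it was called with the block (adjusted p = 0.000117 and 0.000111) but not without (0.137 and 0.164). Pttg1, securin, stood at -0.25 and -0.19 in siG9a and 0.10 and 0.01 in control cells at day 1. At day 0, Pttg1 stood at 0.66 and 0.64 in siG9a and 0.84 and 0.47 in control cells. Its difference was smaller, -0.87 ± 0.18 in siG9a and -0.60 ± 0.18 in control cells, with no overlap between days, and was called only with the block (adjusted p = 0.00249 and 0.0149). The rest of this group spanned the range: Cdca5, sororin, which protects cohesin, had -1.35 ± 0.26 in siG9a and -1.39 ± 0.26 in control cells (adjusted p = 0.0613 and 0.0504, and 0.00198 and 0.00157 with the block). Bub3, a checkpoint adaptor, had -0.90 ± 0.26 in siG9a and -0.73 ± 0.26 in control cells, called only with the block (adjusted p = 0.00159 and 0.00449). Ube2c, the APC/C ubiquitin-conjugating enzyme, had -0.39 ± 0.25 in siG9a and -0.27 ± 0.25 in control cells and was called in neither fit.

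The mitotic kinesins move chromosomes and spindle microtubules, and 5 of the 6 fell in both courses with the block, 3 in siG9a and 2 in control cells without it. Kif2c, which depolymerises microtubules at centromeres, stood at -0.14 and -0.79 in siG9a and 0.31 and -0.50 in control cells at day 1, against 1.58 and 1.46 in siG9a and 1.89 and 1.38 in control cells at day 0. Kif23, the motor of centralspindlin at the midzone, stood at -0.41 and -1.15 in siG9a and 0.08 and -0.62 in control cells at day 1, against 1.37 and 0.93 in siG9a and 1.44 and 0.94 in control cells at day 0. Kif11, which pushes spindle poles apart, stood at 0.04 and -0.63 in siG9a and 0.11 and -0.27 in control cells at day 1, against 1.35 and 1.06 in siG9a and 1.62 and 1.05 in control cells at day 0. All 3 were lower at day 1 on every array, by -1.99 ± 0.32, -1.94 ± 0.33 and -1.50 ± 0.28 in siG9a cells (adjusted p = 0.0323, 0.0376 and 0.0557) and by -1.73 ± 0.32, -1.46 ± 0.33 and -1.42 ± 0.28 in control cells (adjusted p = 0.0467, 0.0912 and 0.0601). With the block, the adjusted p was 0.000163 for Kif11 in siG9a cells, and 0.000114 for Kif23 and 0.000164 for Kif11 in control cells. The chromokinesin Kif22 changed by -2.07 ± 0.25 in siG9a and -1.86 ± 0.25 in control cells (adjusted p = 0.0159 and 0.019), and the chromokinesin Kif4 differed by -1.63 ± 0.44 in both (adjusted p = 0.183 and 0.165, and 0.000332 and 0.000291 with the block). The exception was Kif20a, a cytokinesis kinesin, at -0.02 ± 0.20 in siG9a and -0.22 ± 0.20 in control cells, with arrays that overlapped.

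Of the 8 centromere, kinetochore and passenger complex genes, the same 4 fell in both courses: Birc5, Cdca8, Cenpa and Ndc80. Birc5, survivin, which anchors the passenger complex, stood at -0.10 and -0.77 in siG9a and 0.31 and -0.13 in control cells at day 1, against 1.70 and 2.11 in siG9a and 2.05 and 2.24 in control cells at day 0. Cenpa, the histone H3 variant that marks centromeres, stood at -0.38 and -0.70 in siG9a and 0.06 and -0.21 in control cells at day 1, against 1.17 and 1.91 in siG9a and 1.42 and 1.92 in control cells at day 0. Ndc80, which binds microtubules at the kinetochore, stood at -0.40 and -0.77 in siG9a and 0.28 and -0.44 in control cells at day 1, against 1.39 and 1.30 in siG9a and 1.52 and 1.49 in control cells at day 0. No day 1 array of these 3 genes reached a day 0 array, and their falls were -2.34 ± 0.27, -2.08 ± 0.28 and -1.93 ± 0.25 in siG9a cells (adjusted p = 0.0123, 0.0198 and 0.017) and -2.05 ± 0.27, -1.75 ± 0.28 and -1.59 ± 0.25 in control cells (adjusted p = 0.019, 0.0307 and 0.028). Cdca8, borealin, changed by -2.08 ± 0.28 in siG9a and -1.88 ± 0.28 in control cells, and Incenp, the scaffold of the passenger complex, was lower by -1.47 ± 0.37 and -1.55 ± 0.37, called only with the block (adjusted p = 0.000162 and 0.000101).

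The probes of 2 kinetochore genes ran the other way in control cells. Cenpe, a kinetochore motor, stood at -0.11 and 0.08 in siG9a and 0.12 and 0.17 in control cells at day 1. At day 0, Cenpe stood at -0.26 and 0.00 in siG9a and -0.08 and 0.00 in control cells. Both control arrays of day 1 lay above both of day 0, by 0.19 ± 0.17, while in siG9a cells they overlapped, with 0.11 ± 0.17 (adjusted p = 1 and 0.98). Nuf2, the partner of Ndc80 in one complex, stood at 0.02 and 0.07 in siG9a and -0.27 and 0.10 in control cells at day 1. At day 0, Nuf2 stood at -0.04 and 0.04 in siG9a and -0.39 and -0.02 in control cells. Its arrays overlapped in both courses, with 0.05 ± 0.20 in siG9a and 0.12 ± 0.20 in control cells, where Ndc80 fell. Cenpf, a large kinetochore protein, differed by -0.69 ± 0.32 in siG9a and -0.64 ± 0.32 in control cells (adjusted p = 0.708 and 0.838, and 0.04 and 0.0567 with the block).

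Of the 9 spindle-associated genes, the same 5 fell in both courses: Tpx2, Nusap1, Spag5, Gtse1 and Ckap2. Tpx2, the activator of Aurora A on the spindle, stood at -0.37 and -0.71 in siG9a and 0.16 and -0.34 in control cells at day 1, against 1.16 and 0.98 in siG9a and 1.42 and 1.27 in control cells at day 0. Nusap1, which bundles spindle microtubules, stood at -0.48 and -0.62 in siG9a and 0.04 and 0.02 in control cells at day 1, against 0.93 and 1.38 in siG9a and 1.32 and 1.42 in control cells at day 0. Every day 1 array of both genes lay below every day 0 array, with falls of -1.61 ± 0.22 and -1.70 ± 0.19 in siG9a cells (adjusted p = 0.0198 and 0.0115) and -1.43 ± 0.22 and -1.34 ± 0.19 in control cells (adjusted p = 0.0259 and 0.0213). Gtse1, a microtubule plus-end protein, and Spag5, whose promoter is printed above, changed by -2.49 ± 0.29 and -2.32 ± 0.27 in siG9a cells, against -2.01 ± 0.29 and -1.89 ± 0.27 in control cells. Ckap2, a microtubule stabiliser, stood at -1.01 and -0.64 in siG9a and -0.66 and -0.23 in control cells at day 1. At day 0, Ckap2 stood at 0.49 and 1.24 in siG9a and 1.24 and 1.20 in control cells. Its fall of -1.69 ± 0.27 in siG9a cells and -1.66 ± 0.27 in control cells was nearly equal (adjusted p = 0.0323 and 0.0311).

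Of the other 4 spindle genes, none was called without the block, and Dlgap5 and Ckap5 were called in both courses with it. Dlgap5 (HURP), which stabilises kinetochore fibres, had -0.78 ± 0.18 in siG9a and -0.80 ± 0.18 in control cells (adjusted p = 0.104 and 0.0853, and 0.0062 and 0.00512 with the block). Ckap5, a microtubule polymerase, had -0.87 ± 0.32 in siG9a and -0.73 ± 0.32 in control cells (adjusted p = 0.434 and 0.623, and 0.00265 and 0.00588 with the block). Hmmr, a spindle pole protein and hyaluronan receptor, stood at -0.28 and 0.12 in siG9a and -0.52 and 0.22 in control cells at day 1. At day 0, Hmmr stood at -0.41 and 0.19 in siG9a and -0.33 and 0.06 in control cells. Replicate 2 of Hmmr was above replicate 1 in every group, and the day differences of 0.03 ± 0.31 in siG9a and -0.01 ± 0.31 in control cells were close to 0. Tacc3, which works with Ckap5 on spindle microtubules, had -0.09 ± 0.23 in siG9a and -0.19 ± 0.23 in control cells.

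In cytokinesis, Prc1 and Cep55 fell in both courses. Prc1, which bundles the microtubules of the spindle midzone, stood at -0.22 and -0.74 in siG9a and 0.25 and -0.27 in control cells at day 1, against 1.28 and 1.77 in siG9a and 1.47 and 1.63 in control cells at day 0. Cep55, which recruits the abscission machinery to the midbody, stood at -0.23 and -0.34 in siG9a and -0.05 and -0.06 in control cells at day 1, against 0.95 and 0.83 in siG9a and 1.44 and 0.99 in control cells at day 0. Neither overlapped between days, with falls of -2.01 ± 0.26 and -1.18 ± 0.19 in siG9a cells (adjusted p = 0.0173 and 0.0323) and -1.57 ± 0.26 and -1.27 ± 0.19 in control cells (adjusted p = 0.0342 and 0.0248). Ect2, the exchange factor that activates RhoA at the furrow, stood at -0.31 and 0.03 in siG9a and -0.21 and -0.17 in control cells at day 1. At day 0, Ect2 stood at 0.20 and 0.80 in siG9a and 0.79 and 0.81 in control cells. It was lower at day 1 without overlap, by -0.64 ± 0.22 in siG9a and -0.99 ± 0.22 in control cells, and was called only with the block (adjusted p = 0.028 and 0.00315). Racgap1, the centralspindlin partner of Kif23, stood at -0.19 and 0.32 in siG9a and -0.21 and -0.03 in control cells at day 1. At day 0, Racgap1 stood at 0.03 and 0.06 in siG9a and -0.06 and 0.28 in control cells. Its arrays overlapped in both courses, with 0.02 ± 0.22 in siG9a and -0.22 ± 0.22 in control cells.

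Foxm1, the transcription factor that acts on many of these genes, stood at -0.01 and -0.65 in siG9a and 0.17 and -0.38 in control cells at day 1. At day 0, Foxm1 stood at 1.27 and 1.16 in siG9a and 1.83 and 1.25 in control cells. It was lower at day 1 on every array, by -1.55 ± 0.29 in siG9a cells (adjusted p = 0.0541, and 0.00025 with the block) and -1.65 ± 0.29 in control cells (adjusted p = 0.0407). Top2a, the topoisomerase that untangles sister chromatids, stood at -0.08 and -0.70 in siG9a and 0.05 and -0.18 in control cells at day 1, against 1.14 and 1.66 in siG9a and 1.46 and 1.62 in control cells at day 0. Cdca2, which targets a phosphatase to chromatin, stood at -0.16 and -0.58 in siG9a and 0.22 and -0.03 in control cells at day 1, against 1.44 and 1.57 in siG9a and 1.61 and 1.77 in control cells at day 0. Both changed without overlap, by -1.79 ± 0.26 and -1.87 ± 0.20 in siG9a cells (adjusted p = 0.0231 and 0.0105) and -1.60 ± 0.26 and -1.59 ± 0.20 in control cells (adjusted p = 0.0301 and 0.0186). Cdca3, a factor that promotes mitotic entry, changed by -2.38 ± 0.27 in siG9a and -1.88 ± 0.27 in control cells (adjusted p = 0.0122 and 0.0219).

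**Figure D2:**
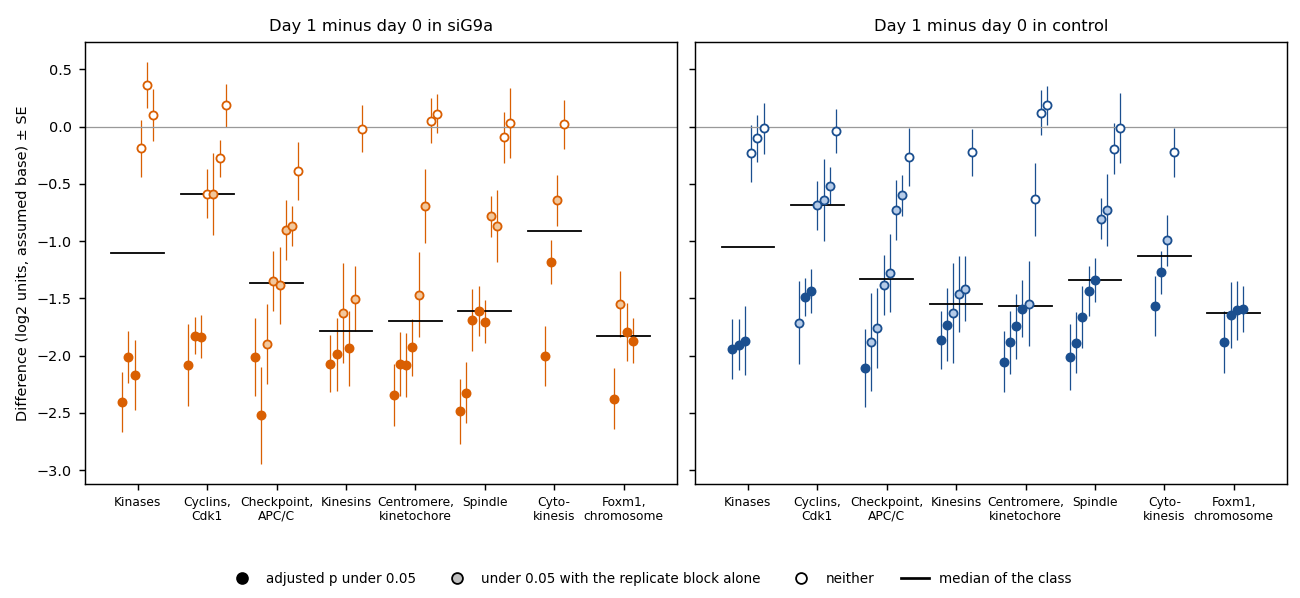
Day 1 minus day 0 difference of each measured member (log2 units, base assumed, with the SE from limma) in siG9a and control cells, by the 8 functional classes, filled where called, pale where called with the block alone, open otherwise, with a line at each class median. In both courses most members lie between -1 and -2.52 and a set including Bub1, Ccnb2, Cenpe, Nuf2 and Hmmr lies near 0.

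The members were sorted into size ranges by their day difference in control cells, with cuts set at -1 and -0.3. There were 32 members between -2.11 and -1.27, 9 between -0.99 and -0.51 (Bub3, Ccna2, Ccnf, Cdc25b, Cenpf, Ckap5, Dlgap5, Ect2 and Pttg1) and 11 between -0.27 and 0.19 (Bub1, Ccnb2, Cenpe, Hmmr, Kif20a, Nek2, Nuf2, Racgap1, Tacc3, Ttk and Ube2c). In siG9a cells the 32 lay between -2.52 and -1.18, the 9 between -0.9 and -0.28 and the 11 between -0.39 and 0.36. The sets of 9 and 11 thus overlapped there. Over all 8 arrays the probes of the 11 ranged over 0.42 to 1.05 units, against 1.78 to 3.27 units for the 32. This contrast follows in part from sorting the members on the same arrays. Across the 8 arrays, the correlation of each member with the mean of the others had a median of 0.969 and exceeded 0.9 for 35 of 52 members; it was 0.93 to 0.997 among the 32 and -0.516 to 0.582 among the 11. This describes shared movement over arrays that differ mainly by day. The sets were sorted by that day difference, so their contrast in correlation is no independent result. The CHR core was present in promoters of 24 of the 26 matched members in the lowest range (92.3%) and of 6 of the 10 matched in the range near 0 (60.0%), beside 30.6% of all genes. The CCAAT box did not follow this order. It was present for 19 of 26 in the lowest range (73.1%) and 8 of 10 near 0 (80.0%), beside 41.1% of all genes. At least 2 CCAAT boxes were present for 12 of 26 (46.2%) and 6 of 10 (60.0%), beside 13.3%. With only 10 matched members near 0, these shares rest on few genes and do not separate the ranges.

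A probe near 0 does not settle a gene's behaviour, because probes of one member could disagree. The probe with the largest SD over the arrays was used for each gene, a choice that favours probes that move, and 29 members had further probes. Among the 32 members of the lowest range, 19 had 30 further probes. Of these, 16 probes of 12 genes, among them Birc5, Cdc20, Mad2l1 and Foxm1, also differed by -2.08 to -1.21 in control cells, while 14 probes of 10 genes, among them Cdk1, Cdkn3, Espl1, Ndc80, Nusap1, Prc1 and Spag5, differed by only -0.405 to 0.182. These 14 probes barely varied on any array, with SDs of 0.0996 to 0.296. With the mean of all probes of a gene, the median member difference was -1.01 in siG9a and -0.80 in control cells.

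**Figure D3:**
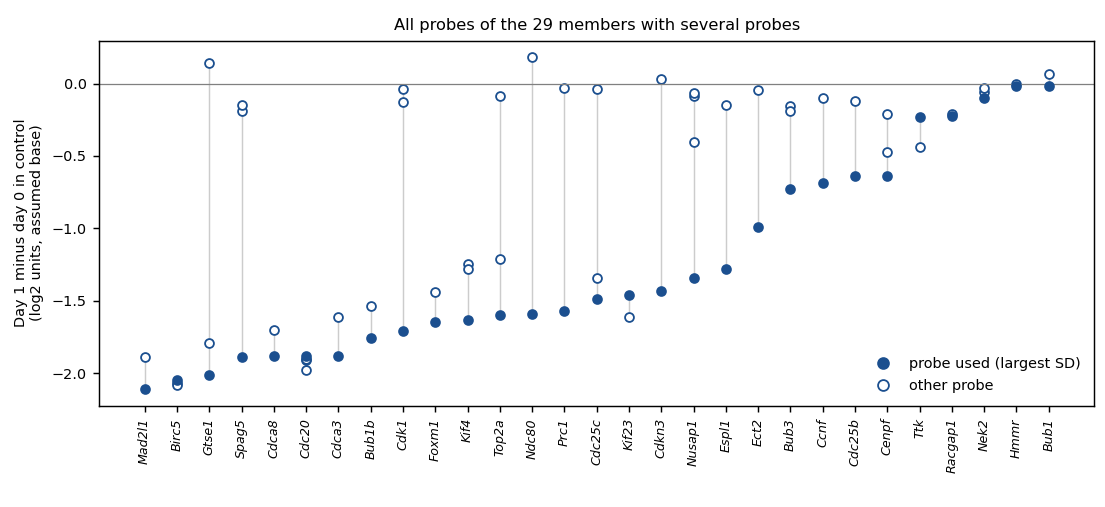
Day 1 minus day 0 difference in control cells (log2 units, base assumed) of every probe of the members with several probes, with the chosen probe marked. Further probes of the members below -1 form separate sets, 16 between -2.08 and -1.21 and 14 between -0.405 and 0.182.

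The effect of siG9a on the members was small beside the day difference, and no member was called in the 4-group model on either day. At day 1, the median member was -0.304 in siG9a minus control cells, or 81.0% of the control level under base 2, while the median over all features was 0.024. At day 1, 43 of 52 members had a negative difference (beside 13287 of 31443 features). In both replicate pairs, 40 were lower in siG9a cells, 76.9% of members beside 22.5% of all features, while 6 were higher in both, beside 33.2% of all features. Called members numbered 0 at day 1 (0% of all features called in each direction), with 5 at an unadjusted p under 0.05 (9.62% of members, beside 0.172% of all features). With the block this count was 17 (32.7% of members), beside 3.8% of all features. At day 0, the median member was -0.164, or 89.3% of the control level, while the median over all features was -0.0356. At day 0, 47 of 52 members had a negative difference, beside 19150 of 31443 features. In both pairs, 32 were lower in siG9a cells (beside 34.2% of all features) and 1 was higher (beside 20%). Called members again numbered 0 at day 0 (0% of all features called in each direction), with 0 at an unadjusted p under 0.05 (beside 0.391% of all features), and with the block 6 (11.5% of members, beside 5.5% of all features).

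At day 1, 13 members lay in siG9a cells below control cells without overlap (beside 4.94% of all features), and Ccna2 alone lay above (beside 8.54%). The 5 members with the smallest p at day 1 were Nusap1, Cdkn3, Plk1, Cdc25c and Cdca2, whose array values are given above. They differed by -0.58 ± 0.19, -0.57 ± 0.19, -0.65 ± 0.26, -0.40 ± 0.16 and -0.46 ± 0.20, and for each of them both siG9a arrays lay below both control arrays. These values hold for the chosen probes. Further probes gave -0.129, 0.0338 and -0.0308 for Nusap1, -0.0772 for Cdkn3, and -0.389 and 0.0583 for Cdc25c. Of the 29 members with several probes, all probes shared a sign for 20 at day 1 and 22 at day 0. The other non-overlapping members were Pttg1, Ube2c, Cenpa, Cenpe, Spag5, Tpx2, Cep55 and Cdca3, between -0.58 and -0.16. For Gtse1 and Cdc20 the differences were as large, -0.65 ± 0.29 and -0.61 ± 0.43, but their arrays overlapped between siG9a and control cells. Within the replicate pairs the differences were close, -0.687 and -0.607 for Gtse1 and -0.635 and -0.582 for Cdc20. The 9 members with a positive difference at day 1 were Bub1, Nek2, Ccna2, Ccnb2, Kif20a, Nuf2, Hmmr, Ect2 and Racgap1, the highest being Nek2 at 0.20 ± 0.20.

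At day 0, 16 members lay in siG9a cells below control cells without overlap (beside 11.3% of all features) and none above (beside 5.54%). The smallest p at day 0 belonged to Cep55 at -0.32 ± 0.19, Aurkb at -0.35 ± 0.23, Ect2 at -0.30 ± 0.22, Ckap2 at -0.36 ± 0.27 and Nek2 at -0.26 ± 0.20 (adjusted p = 1 each). The siG9a arrays of Cep55, Aurkb and Nek2 lay below both control arrays, while those of Ect2 and Ckap2 overlapped, with only the first replicate low. Mad2l1 had the largest difference, -0.42 ± 0.34. The median over members was -0.238 in the first replicate pair, with 50 members lower (beside 19791 of 31443 features). It was -0.0422 in the second, with 33 lower (beside 16106 features), so the day 0 difference was mainly in the first pair. At day 1 the pairs were alike, with medians of -0.317 and -0.293, but the unpaired day 1 median moved to -0.127 without the second siG9a array, -0.545 without the first siG9a array, -0.510 without the second control array and -0.151 without the first control array. With each array centred on its median, the day 0 median was -0.121 with 41 members lower, and after quantile normalization it was -0.055. Without the first siG9a array of day 0 the median was -0.060, and without the second -0.253.

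**Figure D4:**
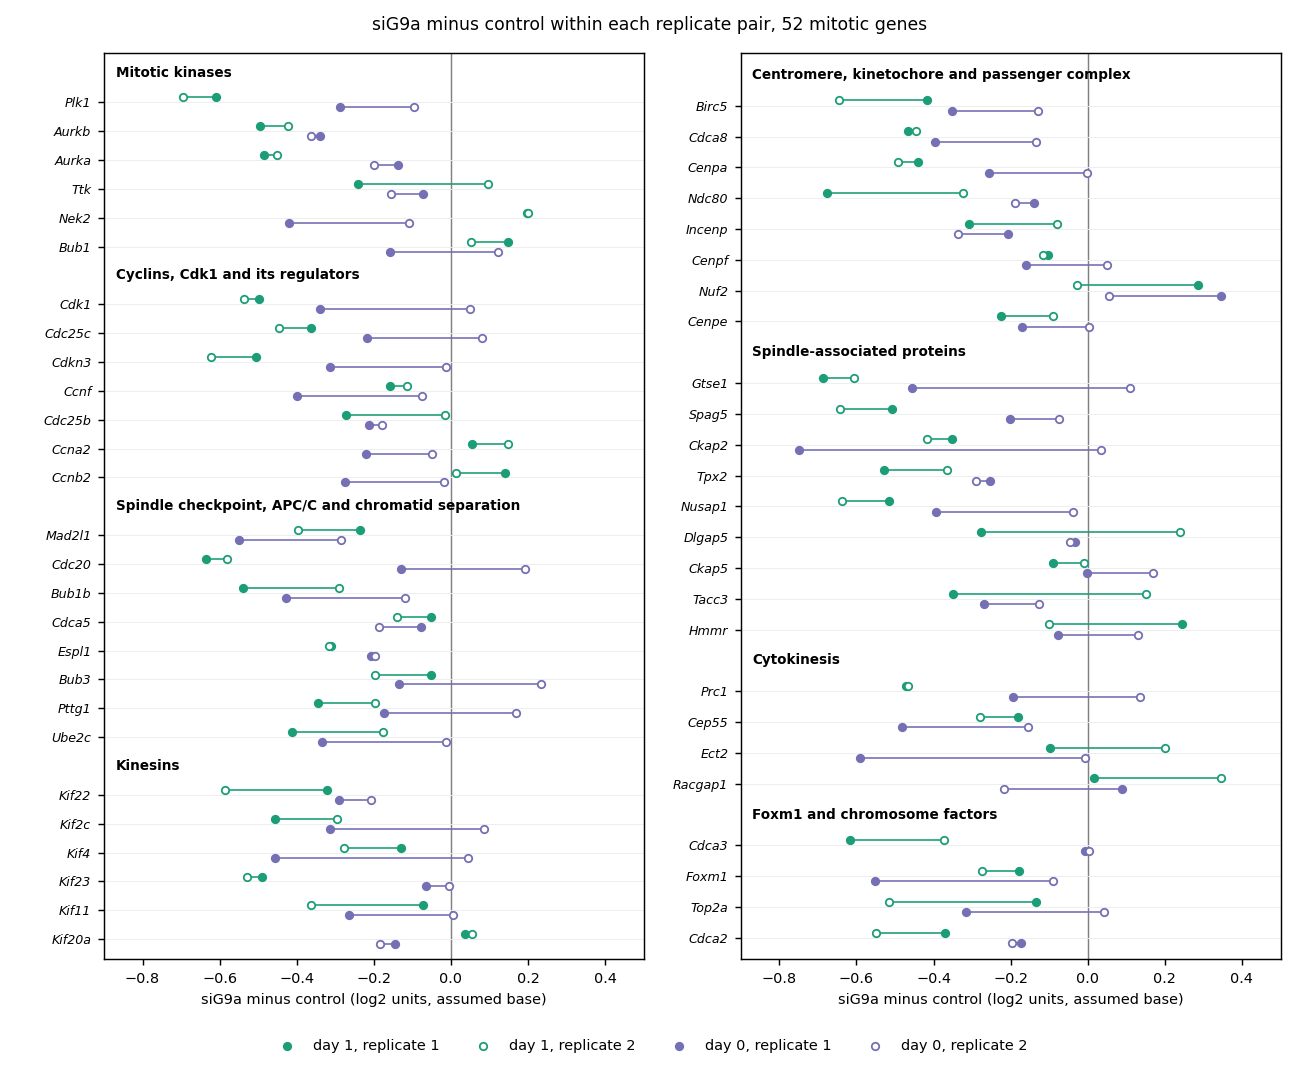
siG9a minus control difference of each measured member within each replicate pair (log2 units, base assumed), for day 1 and day 0. At day 1 the pair medians are -0.317 and -0.293, and at day 0 they are -0.238 and -0.0422.

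Averaged over both days, 47 of 52 members had a negative siG9a minus control difference (beside 16290 of 31443 features), with a median of -0.24 against -0.0041 over all features. In all 4 pairs of day and replicate, 24 members were lower in siG9a cells (beside 8.37% of all features) and 0 were higher (beside 6.64%). They included Aurka, Aurkb and Plk1 among the kinases, Birc5, Cdca8 and Incenp of the passenger complex, the kinesins Kif22 and Kif23, and Foxm1. None was called in the 4-group model, with or without the replicate block (0% of all features called in each direction); the smallest adjusted p with the block was 0.633, and 5 members had an unadjusted p under 0.05 without the block (9.62%, beside 0.471% of all features) and 20 with it (38.5%, beside 4.9%).

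With siG9a as 1 effect over both days and a block for each pair of day and replicate, 8 members were called lower (15.4%, beside 0.433% of all features) and none higher (beside 0.382%). They were Aurkb at -0.41 (adjusted p = 0.0123), Plk1 at -0.42 (adjusted p = 0.0341), Mad2l1 at -0.37 (adjusted p = 0.0325), Kif22 at -0.35 (adjusted p = 0.0474), Birc5 at -0.39 (adjusted p = 0.0364), Cdca8 at -0.36 (adjusted p = 0.0387), Nusap1 at -0.40 (adjusted p = 0.0425) and Tpx2 at -0.36 (adjusted p = 0.0342). Aurkb, Birc5 and Cdca8 encode 3 of the subunits of the chromosomal passenger complex; the other subunit, Incenp, was lower in all 4 pairs without being called. Averaged over both days, further probes of Mad2l1 (-0.428), Birc5 (-0.375 and -0.434) and Cdca8 (-0.413) gave similar differences, while those of Nusap1 gave -0.14, 0.0158 and -0.0317. All probes shared a sign over both days for 18 of the 29 members with several probes. The 4 pairs come from only 2 biological replicates and leave 3 residual degrees of freedom. The limma fit draws each gene's SE toward a spread shared by all features. The p-values of these calls therefore rest in large part on that shared spread. Plk1, with an SE of 0.093 in this fit, differed by -0.61 and -0.70 in the day 1 pairs and by -0.29 and -0.10 in the day 0 pairs. Without the day 1 pair of either replicate no member was called, and without the day 0 pair of the first or second replicate 8 and 12 were called.

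The day 1 and day 0 effects of siG9a were compared directly in the interaction. The median member difference was -0.116, against 0.0565 over all features, and 33 of 52 members were negative (beside 11861 of 31443 features). None was called (limma, adjusted p = 1 for all, 0% of all features called in each direction). At an unadjusted p under 0.05 there were 0 members, beside 0.0572% of all features, and with the block 2 (3.85% of members, beside 4.4% of all features). The median member interaction was -0.0798 in the first replicate pair, with 34 members lower (beside 12517 of 31443 features). In the second pair it was -0.181, with 40 lower (beside 13233 features). Leaving out 1 array breaks this pairing. The median was then -0.009 without the second siG9a replicate of day 1 and 0.008 without the first control replicate of day 1. Nek2, Ccna2, Ccnb2 and Kif20a were higher in siG9a than in control cells in both pairs at day 1 and lower in both pairs at day 0, with Nek2 at 0.46 ± 0.29 between the effects. The calls in 1 course alone (Cdk1, Cdc20, Kif23 and Foxm1) were therefore not shown to differ between siG9a and control cells.

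Other genes of the mitotic pathway came from lists written with the members' results known. In siG9a cells 23 of 105 measured genes fell (21.9%, median -0.828), beside 0.677% of all features (median 0.0902). In control cells 28 fell (26.7%, median -0.917), beside 0.76% of all features (median 0.00931). None was called higher without the block, beside 0.229% of all features in siG9a and 0.363% in control cells. Of 30 further kinetochore and centromere genes, 15 fell in siG9a and 16 in control cells. Spc24 and Spc25, which complete the Ndc80 complex with Ndc80 and Nuf2, were at -1.65 ± 0.16 and -1.69 ± 0.20 in siG9a cells (adjusted p = 0.0088 and 0.0146), against -1.84 ± 0.16 and -1.52 ± 0.20 in control cells (adjusted p = 0.0064 and 0.019). Of 24 further spindle and cytokinesis genes, 5 fell in siG9a and 8 in control cells, among them Knstrn, a kinetochore and spindle protein, at -1.54 ± 0.17 and -1.59 ± 0.17. Of 8 condensin subunits, Ncaph fell in both courses, with -1.80 ± 0.26 in siG9a and -1.63 ± 0.26 in control cells, and Ncapg2 in control cells. None of 15 APC/C genes was called in either course without the block, with medians of -0.0615 in siG9a and -0.12 in control cells. Of 15 DREAM, MuvB and E2F regulators, Rbl1, which encodes the pocket protein p107, fell in control cells (-1.45 ± 0.26, adjusted p = 0.0443) and had -1.37 ± 0.26 in siG9a cells (adjusted p = 0.0573). With the replicate block, more of these genes were called lower, beside 5.56% of all features in siG9a and 4.97% in control cells. They included 26 kinetochore and centromere genes in each course, 17 spindle and cytokinesis genes in siG9a and 16 in control cells, and 5 APC/C genes in siG9a and 4 in control cells. In each course the block also called 5 condensin subunits, 6 further M-phase kinases and regulators and 5 DREAM, MuvB and E2F regulators lower. It called 1 gene of the last list higher, Rbbp4, which encodes a MuvB and chromatin subunit (beside 3.42% of all features in siG9a and 3.85% in control cells). Over the 90 of these genes with a promoter in the table, a CHR core was found in 42.2% and both elements in 27.8%, against 81.8% and 70.5% of members.

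Muscle markers moved with the day in the other direction. All 8 differentiated muscle markers, among them Myog and Ckm, were higher at day 1, with medians of 3.47 in siG9a and 3.95 in control cells. None was called without the block (beside 0.229% and 0.363% of all features called higher), and 7 and 8 were called with it (beside 3.42% and 3.85%). At day 0 all 8 were higher in siG9a than in control cells, with a median of 0.693, and their median level was -1.67 and -4.90 in siG9a against -2.74 and -4.98 in control cells, so the replicates differed more than the treatments. The median of 7 fibroblast markers stood at -0.207 and 1.23 in siG9a and -0.0997 and 1.14 in control cells at day 1, high in the second replicate of both. In those second replicates the members were lower than in the first, by -0.352 in siG9a and -0.331 in control cells at the median. The part of these markers in the members' differences was not tested.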

How the data were processed

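Expression was measured in 8 samples of murine myoblasts, 1 array each, with biotin-labelled total RNA per the labels. The deposited values are logarithms that the authors processed, relative to each probe's own level and taken here as log2: the base is not stated, and a natural logarithm is possible. Their software, background correction, normalization and filters are not given in the sources used. The 8 signal columns of another deposited table carry names (SAMPLE 1 to SAMPLE 8) that match no sample's labels, so they and their detection values stayed out, no filter on dim probes was applied, and signal over background is unknown. The number of arrays limits the precision.

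Of 45281 probes, 35784 carried 1 gene symbol, updated through the Entrez ID (28620) or the transcript accession (2637) or kept from the platform table (4527), and 9497 carried none. The probe with the largest SD over the 8 arrays was kept per gene, and unnamed probes singly. The 4 group means were compared in 1 limma 3.58.1 model under R 4.3.3 with empirical Bayes moderation (4 residual and 4.59 prior degrees of freedom), with Benjamini-Hochberg adjustment over 31443 features and calls at an adjusted p under 0.05. With 2 arrays in each group an exact permutation test reaches p = 0.333 at best, so none was run. The replicate numbers in the titles paired the samples. Over all features, deviations from group means correlated with r from 0.613 to 0.865 over the pairs of groups. Over the members, they correlated less across days than within a day. A fit with the replicate as a block (3 residual and 5.87 prior degrees of freedom) is given beside results whose call it changes. The scripts were tested on simulated data. Alternatives were the block, median centring, quantile normalization, the mean of a gene's probes, named genes only, robust moderation and leaving out each array.

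The members, the other gene lists and the tests were chosen with earlier results of these data known. Values array by array were given for genes set by role, for members whose day difference opposed the median, and for the 5 smallest p in each siG9a comparison. Promoter windows came from RefSeq (GRCm38.p6) and were searched on both strands.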

Additional observations from a re-analysis of the deposited data

How the results depend on the processing

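With the replicate block, 39 members were called lower between days in siG9a and 40 in control cells; the pairing also added calls in the other mitotic lists and the muscle markers, and it changed no call of the siG9a comparisons or the interaction in the 4-group model; with the block within each day, 8 members were called lower in siG9a cells over both days, and 0 to 12 with 1 pair left out. For the day difference in siG9a cells, 13 members were called with median centring, 3 with quantile normalization and 41 with centring and the block, and 0 to 29 with 1 array left out; in control cells these counts were 3, 0, 40 and 0 to 27. The median day difference was -1.013 in siG9a and -0.801 in control cells with the mean of all probes and -1.176 in control cells after quantile normalization; with 1 array left out the medians closest to and farthest from 0 were -1.200 and -1.792 in siG9a and -1.204 and -1.587 in control cells. At day 0 the median siG9a minus control difference was -0.055 after quantile normalization and -0.253 to -0.060 with 1 array left out. The median siG9a minus control difference at day 1 was -0.341 with centring, with or without the block, -0.349 after quantile normalization, -0.227 with the mean of all probes and -0.545 to -0.127 with 1 array left out; over both days the last range was -0.358 to -0.135. The median interaction was -0.195 with centring, with or without the block, -0.264 after quantile normalization and -0.363 to 0.008 with 1 array left out. The cause of these shifts was not tested. Ehmt2 kept its direction under every alternative, from -0.936 to -1.982 at day 1 and -1.175 to -1.987 at day 0. Centring with the block and leaving out pairs were added after seeing the data, and a filter on dim probes was not run.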
